A study of Mus musculus with 36 samples.

Results

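Apol10a is a mouse gene of the apolipoprotein L family, and its level was followed in the blood of irradiated mice. It was taken as every non-control probe that the array files name Apol10a, which was 1 gene, read by 1 probe, of the 31093 gene names on the array. The gene was picked for its pattern on these same arrays, so its levels and differences are given as a description with no test. The other 9 gene names made of Apol and a digit were set beside it, and they were taken by name. Blood of male C57BL/6J mice, irradiated at 8 to 10 weeks of age, was drawn by cardiac puncture 7 days after exposure and stabilised in PAXgene solution. Each of 6 groups held 6 mice, with 1 array for each mouse. Control mice carried the treatment label none, and the study's methods describe them as sham-irradiated. One group received 3 Gy of x-rays. Mixed fields of 5%, 15% and 25% neutrons also delivered 3 Gy in all, the rest coming mostly from x-rays. The last group received 0.75 Gy from the neutron source alone, which also emits some photons, and this was the neutron dose that the 25% mixed field contained. The labels name no deletion or transgene, and globin RNA was reduced before labelling in all groups.

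Apolipoprotein L proteins bind membranes, and most family members lack the secretion signal of the classical plasma apolipoproteins and stay inside the cell. Several are induced by interferons and other inflammatory signals, and family members have been tied to lipid handling, ion channel activity and cell death. Mice carry an expanded cluster of these genes on chromosome 15, with close copies that can be hard for a short probe to tell apart.

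The array held 14 probes for the 10 Apol genes. The first 30 of the 60 bases of the probes behind the tested genes are printed here because they show what each signal can be assigned to. Capitals in the Apol10b probe mark 25 bases that also stand in RefSeq near the transcript starts of Apol10a, Apol11a and Apol11b, and capitals in the Apol9a and Apol9b probes mark the 3 letters of 60 in which those probes differ.
Apol10a: taagcactgaggtggcaaccatacgcctgc
Apol11b: tggagatggtagcccaggattgtacagcgt
Apol10b: GAACCACACAGCTAAGGACAGCTGGgacac
Apol7b: tgtgctgagaggggagtccccaatatgttg
Apol9a: agccCacGcccatcctcaggcatgtcatTg
Apol9b: agccGacAcccatcctcaggcatgtcatGg
The Apol10a and Apol11b probes share no run of more than 8 bases. The match in the Apol10b probe ends where the RefSeq window ends, and the array files list this probe for Apol11b and Apol11a transcripts too. The signal named Apol10b cannot be assigned to Apol10b alone, and that of Apol9a cannot be separated from that of Apol9b. On the mm9 map of the array files the Apol10a probe lies at chr15:77485080-77485139 on the minus strand, between the probes of Apol11b and Apol9b. RefSeq on GRCm38.p6 instead lists Apol10a on the plus strand, between Apol7b and Apol11a. Between Apol11b and Apol9b, RefSeq lists the pseudogene Apol10c-ps and the gene Apol7e. Which transcripts the probe captured was not tested, and Apol10a is used here as the array's name for this signal.

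Apol10a was low in control blood, far higher after every 3 Gy exposure, and in between after 0.75 Gy from the neutron source. The levels below are log2 intensity relative to the median of the array, so 1 unit is a doubling. Among controls the lowest, median and highest Apol10a levels were 3.28, 3.52 and 4.30. After x-rays they were 7.60, 8.64 and 9.45. The 5% mixed field gave Apol10a levels of 7.14, 8.86 and 9.28. These 3 groups were thus separated into 1 low and 2 high sets of arrays, with no array of the exposed mice near a control. The 15% mixed field gave 8.27, 9.13 and 9.52. The 25% mixed field gave 7.99, 8.43 and 9.58. After the neutron exposure the Apol10a levels were 5.33, 5.64 and 7.05. All 6 neutron arrays lay above every control and below every array of the 3 Gy groups, although replicate 2, at 7.05, came close to the lowest array of the 5% mixed field.

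**Figure D1:**
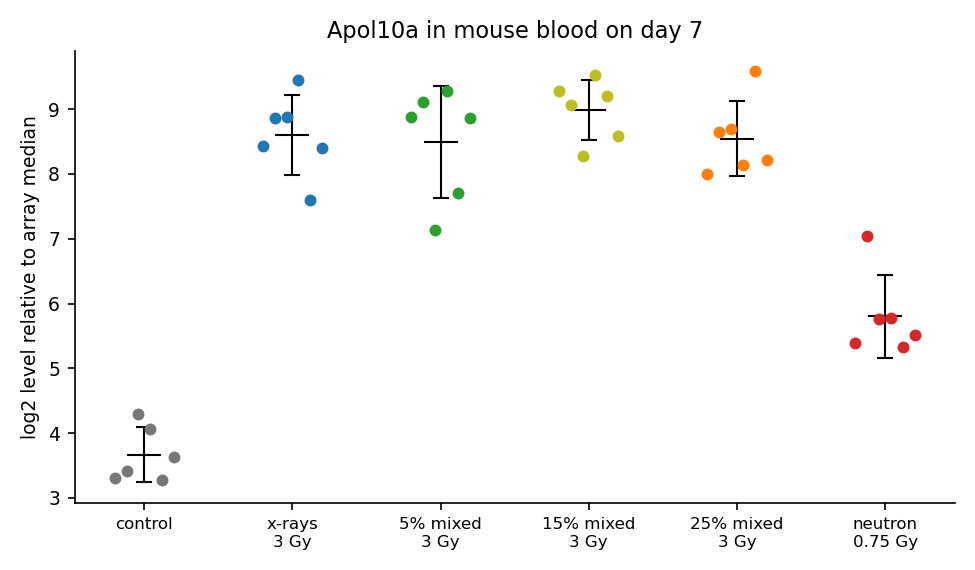
Apol10a level on each of the 36 arrays (y axis, log2 intensity relative to the array median) by exposure group (x axis); points are mice, and bars give the mean and SD of 6 mice. The 6 control arrays sit between 3.28 and 4.30, the 6 neutron arrays between 5.33 and 7.05, and all arrays of the 3 Gy groups above both.

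The mean difference of Apol10a from controls was 4.93 ± 0.31 (SE, n = 6 and 6) after x-rays, or 30.6-fold higher. After the 5% mixed field the difference was 4.82 ± 0.39, or 28.3-fold. The 15% mixed field stood 5.32 ± 0.26 above controls, or 39.9-fold. For the 25% mixed field the difference was 4.88 ± 0.29, or 29.4-fold. The 4 groups that received 3 Gy thus stood within 0.5 log2 units of each other, although under normexp background correction their differences were 3.66, 2.46, 4.69 and 3.83. After 0.75 Gy from the neutron source Apol10a differed from controls by 2.14 ± 0.31, or 4.39-fold. These 5 differences share the same 6 control arrays and are not independent of each other.

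Among the 3 Gy groups, Apol10a differed by less than the spread between mice. Set against x-rays, the 5% mixed field differed by -0.11 ± 0.43, the 15% mixed field by 0.38 ± 0.32 and the 25% mixed field by -0.058 ± 0.35 on the log2 scale. Under normexp the 5% and 15% mixed fields were -1.21 and 1.03 from x-rays. In order of the group means, the 15% mixed field (8.98, SD 0.47) was followed by x-rays (8.60, SD 0.62), the 25% mixed field (8.54, SD 0.58) and the 5% mixed field (8.49, SD 0.87), and no neighbours in that order were farther apart than their SD. The neutron group (5.80, SD 0.64) and the controls (3.67, SD 0.42) closed the order, each apart from its neighbours by more than any SD.

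The contrast between the 0.75 Gy neutron exposure and the 25% mixed field addressed the same neutron dose without and with added x-rays. Apol10a was 2.74 ± 0.35 log2 units lower after neutrons alone, a 6.68-fold difference, and all 6 neutron arrays lay below the lowest array of the 25% mixed field. Against 3 Gy of x-rays it was 2.80 ± 0.36 lower, or 6.96-fold. The neutron groups differed in total dose as well as in field, so the part of each cannot be told apart in these contrasts.

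Unscaled intensities of the Apol10a probe ran in the same direction at the median but overlapped at the edges of the groups. The median probe intensity was 259 in controls, 5921 after x-rays, 5293, 6731 and 9639 after the 5%, 15% and 25% mixed fields, and 593 after neutrons. The highest control (511) exceeded the lowest neutron array (480), and the highest neutron array (1492) exceeded the lowest x-ray array (1490). The probe was well above background and unsaturated on all 36 arrays. Under normexp the difference from controls was 0.47 for neutrons, while the other scalings, normalizations and filters tried kept Apol10a between 2.14 and 2.45 above controls after neutrons.

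Arrays were scanned in 4 sessions on 10 slides, and the sessions were uneven over the groups. In the session with 5 control and 5 x-ray arrays, Apol10a was 5.10 higher after x-rays. In the session with 1 array of each of 4 groups, the difference from the control array was 4.10 for x-rays, 3.40 for the 5% mixed field and 3.97 for the 15% mixed field. All arrays of the 25% mixed field and of the neutron exposure were scanned together, without controls or x-rays. Session and exposure therefore cannot be told apart for the 25% mixed field and neutrons against controls or x-rays, whereas the contrast between these groups lay within 1 session. The other 5 arrays each of the 5% and 15% mixed fields were also scanned without controls or x-rays. For those arrays session and exposure cannot be told apart either. Probes well above background numbered 15670 to 21373 per array, with 19531 to 20817 in controls and 16496 to 19065 after neutrons.

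Apol11b, and the signal named Apol10b whose probe is also listed for Apol11b, followed Apol10a. Both were higher than in controls after every exposure, and both were lower after neutrons than after x-rays. Apol7b went the other way and was lower than in controls after every exposure. Apol9a and Apol9b varied widely between mice except after neutrons, and neither passed the test against controls in any exposure. A gene counts as called here at p below 0.001 with an adjusted p below 0.05 in limma, a linear model with a moderated variance fitted to 15085 genes. Of the 9 other Apol genes, 5 passed the filters on signal and spread and were tested.

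**Figure D2:**
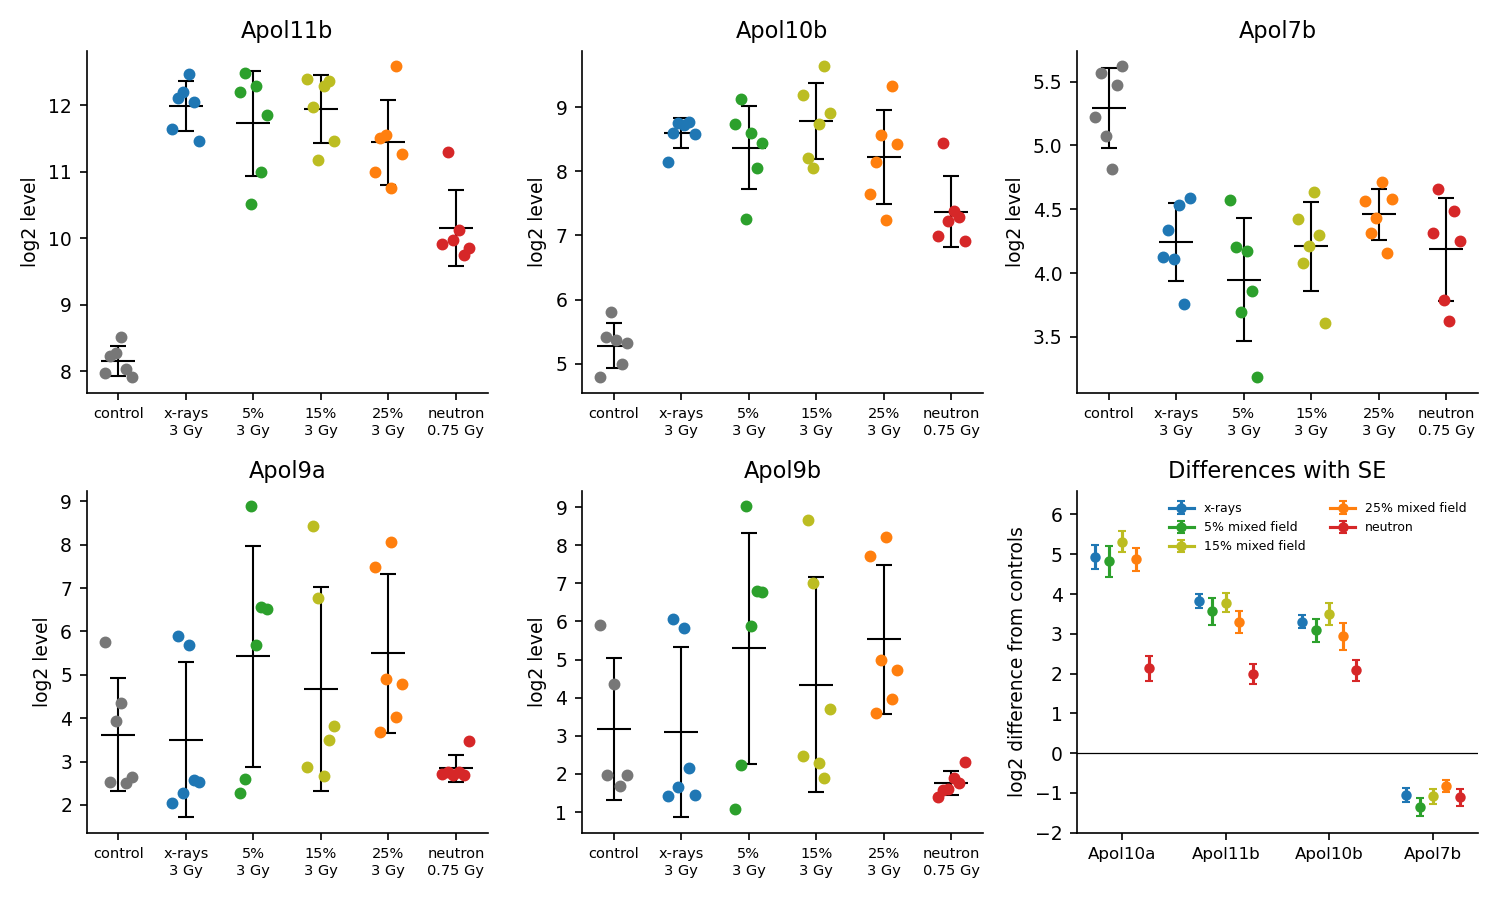
Levels of the 5 other tested Apol genes on each array (y axes, log2 intensity relative to the array median) by exposure group (x axes), with mean and SD bars, and in the last panel the log2 differences from controls with their SE for Apol10a, Apol11b, Apol10b and Apol7b. Apol11b and Apol10b lie above controls and Apol7b below in all exposures, with 6 of 6 arrays outside the control range. Apol9a and Apol9b spread over several log2 units within every group except neutrons.

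Apol11b, the array neighbour of Apol10a, had control levels of 7.91, 8.14 and 8.52 (lowest, median, highest). Its x-ray levels were 11.46, 12.08 and 12.48. The 5%, 15% and 25% mixed fields ranged from 10.52 to 12.49, from 11.18 to 12.40 and from 10.75 to 12.59. No array of these groups overlapped with the controls. After neutrons Apol11b levels were 9.74, 9.95 and 11.30, also above every control. Apol11b rose by 3.83 ± 0.21 (limma SE) after x-rays, with a limma adjusted p of 1.56e-07, and by 1.99 ± 0.24 after neutrons with a limma adjusted p of 1.59e-05. In the 5%, 15% and 25% mixed fields it rose by 3.57, 3.79 and 3.29, with limma adjusted p of 3.18e-06, 2.60e-07 and 1.39e-06.

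Apol10b, through the probe with the shared bases, had control levels of 4.79, 5.35 and 5.80. After x-rays the Apol10b levels were 8.14, 8.66 and 8.77. After neutrons they were 6.92, 7.26 and 8.43. The mixed fields held Apol10b between 7.23 and 9.63, so all 30 exposed arrays were above the controls. It rose by 3.31 ± 0.20 after x-rays (limma adjusted p = 2.78e-07) and by 2.09 ± 0.25 after neutrons (limma adjusted p = 1.55e-05). The mixed fields raised Apol10b by 3.08, 3.50 and 2.94 in order of neutron share, with limma adjusted p of 5.31e-06, 1.14e-06 and 1.20e-05. A second Apol10b probe elsewhere on the map was well above background on only 3 arrays, 1 in each mixed field group, and gave no fold.

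Apol7b fell. Its control levels were 4.82, 5.35 and 5.62, and its x-ray levels were 3.76, 4.23 and 4.59. After neutrons they were 3.62, 4.28 and 4.66, and every exposed array of all 5 groups lay below the lowest control. It fell by 1.05 ± 0.21 on the log2 scale after x-rays (limma adjusted p = 0.00107) and by 1.11 ± 0.21 after neutrons (limma adjusted p = 0.000477). In the mixed fields Apol7b fell by 1.35, 1.09 and 0.84, with limma adjusted p of 0.000978, 0.00137 and 0.00345. The probe is also listed for Apol7e in the array files. The call after x-rays was lost with the slide as a block (limma adjusted p = 0.0419). The call in the 25% mixed field was lost in 10 of the 12 refits that left out 1 array, and that in the 15% mixed field was lost without control replicate 2, 5 or 6.

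Counted together, 2 of the 5 tested Apol genes were called higher and 1 lower in each exposure. Over all genes tested, 12.9% were called higher and 16.9% lower after x-rays. The same shares were 9.04% and 14% after the 5% mixed field, 12.6% and 16.5% after the 15% mixed field, 10.9% and 13.9% after the 25% mixed field, and 16.1% and 20.5% after neutrons. With 5 genes tested, 4 of them through probes that share letters or listed transcripts with others of the family, these counts are a description of the named genes and say nothing of the family as a whole. Normexp background correction kept the directions of Apol11b, Apol10b and Apol7b but ended all their calls except those of Apol11b and Apol10b in the 15% mixed field, and the limma adjusted p of Apol11b after neutrons was then 0.81. With the slide as a block, which leaves 1 exposed and 1 control array to compare in the 5% and 15% mixed fields, none of their calls there held.

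None of the 5 tested Apol genes was called between any 3 Gy mixed field and x-rays, where 0%, 4.09% and 2.61% of all genes were called for the 5%, 15% and 25% mixed fields. Neutrons against x-rays gave 2 of 5 called lower, against 6.38% of all genes. Apol11b was 1.84 ± 0.28 lower (limma adjusted p = 0.000479), with all 6 neutron arrays below the x-ray arrays. Apol10b was 1.22 ± 0.25 lower (limma adjusted p = 0.00341), with 5 of 6 arrays below, and that call was lost without neutron replicate 1. Against the 25% mixed field, 1 of 5 was called lower, where 7.36% of all genes were. That gene was Apol9b, while Apol11b, at -1.29 ± 0.33, had a limma adjusted p of 0.0123 and was called when neutron replicate 2 or replicate 4 of the 25% mixed field was left out. Apol10b, at -0.85 ± 0.35, had a limma adjusted p of 0.0859.

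Apol9a and Apol9b, close copies that are induced by interferon in mouse cells, differed widely between mice in every group except neutrons. Control levels of Apol9a were 3.29 at the median and reached from 2.50 to 5.75. In the 5% mixed field they reached from 2.28 to 8.89, with a median of 6.11. After neutrons they lay between 2.68 and 3.47. Apol9b had the same shape, from 1.69 to 5.90 in 5 usable controls, from 1.08 to 9.02 in the 5% mixed field and from 1.40 to 2.30 after neutrons. The largest Apol9b difference from controls, 2.36 ± 0.98 after the 25% mixed field, had a limma adjusted p of 0.0646. For Apol9a the same difference was 1.87 ± 0.79 (limma adjusted p = 0.0661). Neutrons against the 25% mixed field gave -3.78 ± 0.70 for Apol9b (limma adjusted p = 0.00168, not called with the slide as a block or under normexp) and -2.65 ± 0.66 for Apol9a (limma adjusted p = 0.0104, not called).

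The spread of Apol9a and Apol9b moved with liver transcripts found in the same blood samples. A list of 10 abundant liver products (Alb, Ttr, Ahsg, Fga, Fgb, Fgg, Hpx, Cyp2e1, Cps1 and Serpina3k) was chosen after the data had been seen. Alb, which encodes serum albumin, ranged from -2.16 to 15.13 over the arrays. The mean level of the 10 genes, at its lowest, median and highest, was -1.25, 3.99 and 8.88 in controls. In the 5% mixed field it was -0.96, 9.61 and 11.62. In the 25% mixed field it was 6.65, 7.71 and 11.30, and after neutrons -0.98, -0.056 and 3.79. The neutron arrays were therefore low in liver transcripts, and every array of the 25% mixed field was above every neutron array. Across arrays, which share groups, slides and sessions, Pearson's r with this mean was 0.93 for Apol9b (35 arrays) and 0.89 for Apol9a (36 arrays). Within groups it was 0.90 and 0.86. With the liver mean as a covariate, an alternative added after seeing the data, the difference of Apol9b between neutrons and the 25% mixed field became 0.15 (limma adjusted p = 0.984), and that of Apol9a became 0.80 (limma adjusted p = 0.896). The liver means of these groups do not overlap, so in this contrast liver level and exposure cannot be told apart and the adjusted values are extrapolations, and the source of the liver transcripts was not tested.

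Apol10a did not track those transcripts. Its r with the liver mean was 0.33 over 36 arrays and -0.16 within groups, and the corresponding within-group values were -0.24 for Apol11b, -0.41 for Apol10b and -0.44 for Apol7b. With the liver covariate Apol10a stood 4.93, 4.99, 5.36, 4.98 and 2.19 above controls after x-rays, the 5%, 15% and 25% mixed fields and neutrons. Between neutrons and x-rays the covariate left the Apol10a difference at -2.63, and between neutrons and the 25% mixed field, where the same limit applies, it moved it to -3.57. Apol11b and Apol10b stayed called against controls in all 5 exposures under the covariate, whereas Apol7b lost its call in the 25% mixed field (limma adjusted p = 0.0562).

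**Figure D3:**
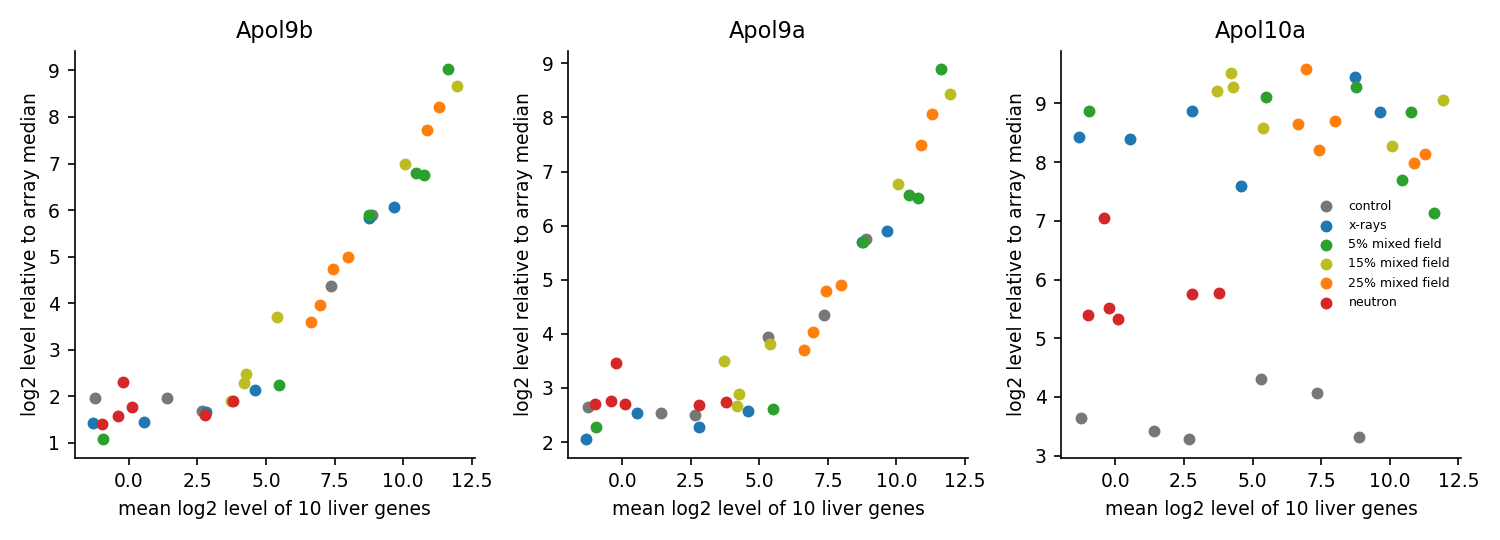
Levels of Apol9b, Apol9a and Apol10a (y axes, log2 intensity relative to the array median) against the mean log2 level of 10 liver genes on the same array (x axes), 1 point per array coloured by group. Apol9b and Apol9a rise along the liver axis over the arrays (r of 0.93 and 0.89), whereas Apol10a separates by exposure (r of 0.33).

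The remaining Apol genes were too dim to test. One Apol7a probe was well above background on 17 of 36 arrays and on none after neutrons, and its r with the liver mean was also 0.93. The other Apol7a probe was well above background on 10 arrays. Apol6, Apol7c and both Apol7d probes were not well above background on any array, so they have no fold here.

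Promoter sequence was compared because the signals named Apol10a, Apol11b and Apol10b moved together and that of Apol7b opposite. Which transcripts the Apol10a probe captured was not tested. The Apol10b probe is also listed for Apol11b and Apol11a, and the Apol7b probe for Apol7e. The printed promoters are those of the RefSeq genes with these names and need not be those of the transcripts measured. The 100 bases before and 20 after the transcript start are printed from RefSeq on GRCm38.p6, 5′ to 3′ on the strand of the gene. Capitals mark matches to GAAA, any 2 bases and GAAA again, or to the complement of this, the core of the element through which interferon-activated factors act.
Apol10a, chr15:77476947-77477066, plus strand: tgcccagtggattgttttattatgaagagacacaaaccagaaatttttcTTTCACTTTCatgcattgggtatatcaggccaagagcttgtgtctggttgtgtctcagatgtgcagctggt
Apol11b, chr15:77643267-77643386, minus strand: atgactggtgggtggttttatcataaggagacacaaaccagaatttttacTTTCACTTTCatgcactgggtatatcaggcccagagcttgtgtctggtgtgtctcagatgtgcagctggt
Apol10b, chr15:77596106-77596225, minus strand: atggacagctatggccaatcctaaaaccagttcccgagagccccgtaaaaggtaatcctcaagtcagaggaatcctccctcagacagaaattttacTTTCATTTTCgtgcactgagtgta
Apol7b, chr15:77447441-77447560, minus strand: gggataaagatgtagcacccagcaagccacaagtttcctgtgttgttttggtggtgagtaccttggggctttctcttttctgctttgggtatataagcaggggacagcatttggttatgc
The match begins 51 bases before the start in Apol10a, 50 in Apol11b and 4 in Apol10b, and these letters are not in the Apol7b window. Over windows of 250 bases before to 50 after the start, searched on both strands, 8 of the 11 Apol genes with an entry held a match, as did 3.44% of all 32851 promoter windows. Apol9a and Apol9b were among the 8, so a match was not particular to the genes that rose. TTCNNNGAA, the spacing bound by STAT factors, was in the windows of Apol10a, Apol11a and Apol11b, 241 bases before the start in Apol10a, and in 8.3% of all windows. The 2 motifs do not overlap there. Apol10a and Apol11b shared 218 of 299 aligned window letters (72.9%), while Apol11a and Apol11b shared 298 of 300.

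Other interferon-stimulated genes were called in both directions. Of a list of 31, 28 were tested, and 3 were called higher and 6 lower after x-rays. The counts were 3 and 6 after the 5% mixed field, 3 and 3 after the 15% mixed field, 3 and 4 after the 25% mixed field, and 5 and 3 after neutrons. In the same order 32.1%, 32.1%, 21.4%, 25.0% and 28.6% of the list were called, beside 29.8%, 23.1%, 29.1%, 24.8% and 36.6% of all genes, so the share of the list was near the background. The median log2 difference of the list was -0.60 after x-rays and 0.16 after neutrons, beside -0.11 and -0.12 over all genes. The genes called higher in all exposures were Oas3, an oligoadenylate synthetase, Rsad2, an antiviral enzyme, and Isg15, a ubiquitin-like modifier. Oas3 rose by 2.08, 2.04, 2.62, 2.33 and 1.73 (x-rays, 5%, 15% and 25% mixed field, neutrons; limma SE 0.19 to 0.32). Rsad2 rose by 1.93, 1.55, 1.85, 1.74 and 2.13, and Isg15 by 1.92, 1.67, 2.06, 1.68 and 1.58. For Oas3 every neutron array (5.94 to 6.72) lay below every array of the 15% mixed field (6.73 to 7.72), and the differences of these 3 genes between exposures were not tested one by one. Stat2, a transcription factor of interferon signalling, fell by 1.48, 1.24, 1.45, 1.19 and 1.18, and Ifit2, an antiviral RNA-binding protein, fell by 1.12, 1.77, 1.95, 1.42 and 1.11, both called in all 5. Ddx58, a sensor of viral RNA, was called lower in 2 exposures and Trim30a in 4. The mean level of the 28 genes had an r of -0.23 with Apol10a over the arrays and 0.47 within groups.

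The genes whose pattern was most like that of Apol10a over the 36 arrays were NAP113319-1 (r = 0.98), Nrip3 (0.98), Apol11b (0.98), Mmel1 (0.97), Spc24 (0.97), Gng13 (0.97), Mki67 (0.97) and Nacad (0.97). Over the 15084 other genes tested the median r was -0.026, and 200 genes had an r above 0.9, so a high r was shared with many genes that differ between the same groups. After removing the group means, the highest r values with Apol10a were those of Apol11b (0.89), NAP113319-1 (0.89), 2010109A12Rik (0.87), Smtnl1 (0.86) and 3110002H16Rik (0.85). Apol11b and NAP113319-1 were thus in both lists. Apol10b had an r of 0.94 and a within-group r of 0.74, and Apol7b of -0.56 and 0.21.

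**Figure D4:**
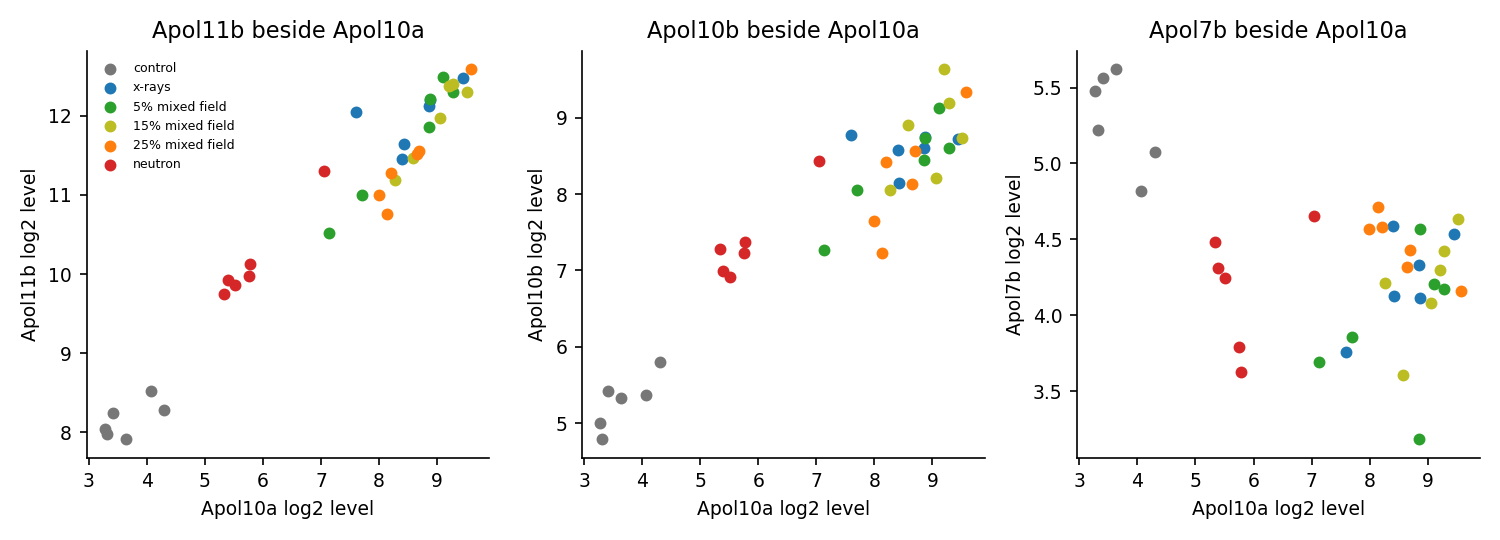
Levels of Apol11b, Apol10b and Apol7b (y axes, log2 intensity relative to the array median) against that of Apol10a (x axes), 1 point per array coloured by group. Apol11b and Apol10b climb with Apol10a from controls through neutrons to the 3 Gy groups (r of 0.98 and 0.94), and Apol7b is highest in controls (r of -0.56).

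Among these genes, Mki67, a marker of cycling cells, had a median level of 4.75 in controls, 6.51 after neutrons and 8.57 after x-rays. Spc24, a kinetochore protein of dividing cells, had median levels of 1.47, 2.79 and 4.83. They were picked for their likeness to Apol10a, so their order repeats that choice. Nrip3, Mmel1, which encodes a membrane metalloendopeptidase, and Gng13, a G protein gamma subunit, were not well above background on any control array. Measured against the detection floor, Nrip3 was at least 13.6-fold, Mmel1 at least 21.0-fold and Gng13 at least 17.6-fold higher after x-rays. Nrip3 and Gng13 were each well above background on 2 of 6 neutron arrays, and Mmel1 on 5 of 6. No fold is given for them after neutrons.

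Some probes near Apol10a on the array's map were higher as well. Of the other tested names from -58.7 to 93.3 kb of its probe, Apol10b, Apol11b, NAP113319-1 and ENSMUST00000089450 were called higher in all 5 exposures. NAP113319-1 and ENSMUST00000089450 were near background in controls. They thus passed the filter on signal largely through the exposed arrays and could hardly be called lower. Apol9b was not called against controls. The stretch ends at the probes of Apol10b and ENSMUST00000089450, so what it holds depends on where it was drawn. The next tested probes lay at -211.7 kb (NAP111082-1) and 105.9 kb (Myh9). Over all genes tested, 9.04% (5% mixed field) to 16.1% (neutrons) were called higher than in controls. A wider list took the 31 tested genes outside the family with a probe within 500 kb of any Apol probe. The array's map puts the Apol7d probes on chromosome 1, so this list is not confined to the surroundings of Apol10a on chromosome 15. Of these, 4 were called higher and 5 lower after x-rays, or 29.0%, beside 29.8% of all genes in either direction, and 2 and 12 after neutrons, or 45.2%, beside 36.6%. NAP113319-1, a transcript name of the array with a probe 1.48 kb from the Apol10a probe, was called higher in all 5 exposures. Its median level was 4.55 after x-rays and 1.79 after neutrons. In controls it was well above background on 1 of 6 arrays, so no size of its rise is given in the text. Whether both probes capture 1 transcript was not tested. The first 30 bases of this probe and of the other neighbour called higher in all exposures are printed as further signals of the locus.
NAP113319-1: gaaaaatagggcttacagttccgttccttg
ENSMUST00000089450: tctacagaacccatcgttatgaaagatgtc
ENSMUST00000089450, whose probe lies 93.3 kb from that of Apol10a between Apol9b and the myosin gene Myh9, was not well above background on any control array. It was at least 5.45-fold higher after x-rays. After neutrons it was well above background on only 1 of 6 arrays, so no fold is given there. Zfp7, a zinc finger gene, fell by 2.12 after x-rays and by 1.93 after neutrons, and Tonsl, a replication fork repair factor, fell by 1.30 and 1.38, both called in all 5 exposures. 1110038F14Rik and Zfp251 were called lower in 3 exposures each. These 4 lie near Apol6 and far from the Apol10a probe.

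**Figure D5:**
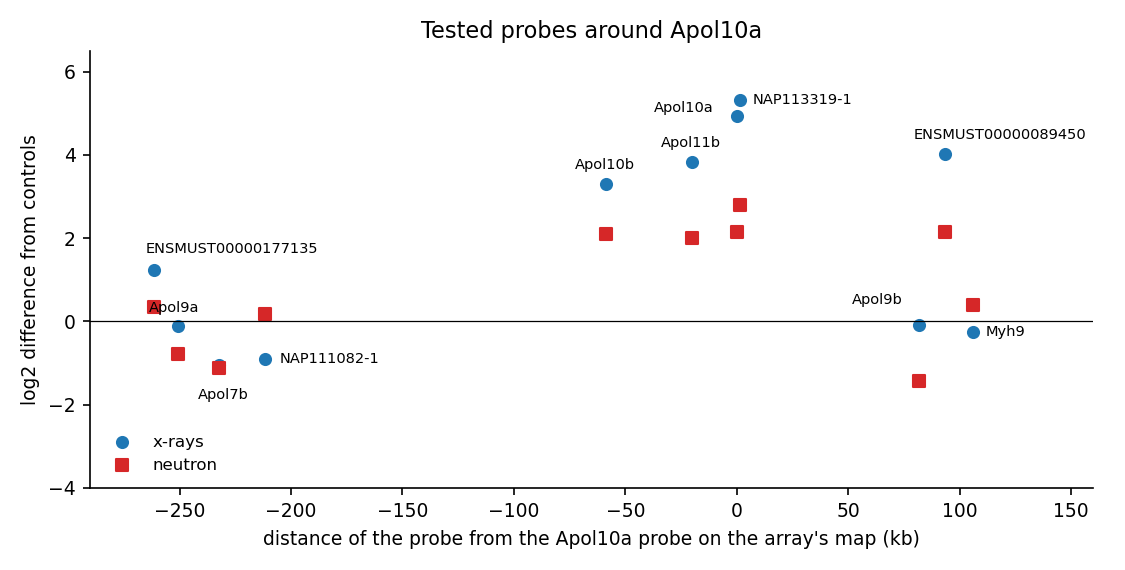
Log2 difference from controls (y axis) of the tested probes around Apol10a, placed by distance from the Apol10a probe in kb on the array's map (x axis), after x-rays and after neutrons. Apol10a, NAP113319-1, Apol11b, Apol10b and ENSMUST00000089450 stand above 0 in both exposures, and Apol7b stands below. NAP113319-1 and ENSMUST00000089450 were near background in controls, so the heights of their points are not measured sizes.

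Genes with other apolipoprotein names were also read, since many of them carry plasma lipids and are largely made in liver. Of 20 listed, 17 were tested, and Apold1, an endothelial gene, was called higher in all 5 exposures, by 1.45, 1.45, 1.67, 1.73 and 1.15. It was the only one of the 17 called against controls in the 3 Gy groups, where 23.1% to 29.8% of all genes were called. Apod, a lipocalin, was called higher after neutrons, by 0.82 ± 0.14 (limma adjusted p = 0.000292). After neutrons 2 of the 17 were thus called, or 11.8%, beside 36.6% of all genes. For neutrons against the 25% mixed field, 9 of the 17 were called lower, or 52.9%, beside 7.36% of all genes. The list medians of 3.02 and 3.44 in the 5% and 25% mixed fields came with no further call, and 11 of the 17 genes had an r above 0.85 with the liver mean. Apoa1, the main protein of high-density lipoprotein, ranged from -2.12 to 9.53 over the arrays, with an r of 0.99. Apold1, at -0.0049, had no such relation over the arrays, although its r within groups was -0.47.

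Blood cell markers changed in the same arrays in which Apol10a changed. Over all genes tested, 13.9% to 20.5% were called lower and 9.04% to 16.1% higher than in controls, depending on the exposure. Of the 8 B cell markers, 8, 8, 8, 8 and 7 were called lower after x-rays, the 5%, 15% and 25% mixed fields and neutrons. The log2 of their summed signal lay between 10.99 and 11.84 in controls, between 5.53 and 9.20 after x-rays and between 9.75 and 10.20 after neutrons. Apol10a had an r of -0.92 with this sum over the arrays and of -0.36 within groups. Of the 7 tested red cell markers, 6, 6, 6, 4 and 7 were called higher. Their sum, taken in the same way, lay between 14.40 and 14.82 in controls, between 15.23 and 16.40 after x-rays and between 15.65 and 16.37 after neutrons. The sum is carried by the brightest markers. Between neutrons and x-rays, 3 of the 7 red cell markers were called lower and none higher, with a median log2 difference of -1.09. Of all genes tested, 6.38% were called lower in that contrast. Within groups, the r with the red cell sum was 0.61 for Apol10a, 0.75 for Apol11b and 0.85 for Apol10b. Of the 7 tested neutrophil markers, 3 were called higher in every exposure and 0, 0, 1, 1 and 1 lower. Of the 9 T cell markers 0 to 3 were called lower, of the 10 platelet markers 0 to 3 were called higher, of the 5 tested monocyte markers 0, 1, 0, 0 and 2 were called higher, and of the 5 tested dendritic cell markers 1 was called higher, after neutrons. None of the 6 NK cell markers was called in any exposure. In lists this short, counts near the shares of all genes are a description only. The part of these cell types in the Apol10a signal was not tested, and in whole blood more cells of a type and more RNA per cell cannot be told apart.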

How the data were processed

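Blood RNA of 36 mice was hybridised to 36 one-colour Agilent arrays, and groups were taken from the sample titles. The authors extracted the scanned images with Feature Extraction 12.0.2, and the deposited files give background-subtracted, detrended intensity values for each spot. A deposited value table of log2 values of 14243 probes, which the authors normalised and filtered, served only as an alternative.

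Here spots of a probe were averaged without non-uniform spots, log2-transformed and set relative to each array's median. Probes that failed uniformity or a significant signal on at least 25% of arrays were dropped, which left 21484 of 39429, and 17963 were left after requiring at least 1.5-fold deviation from the probe median on 20% of arrays. The brightest probe stood for a gene, giving 15085 genes. limma 3.58.1 in R 4.3.3 was fitted to the 12 arrays of each comparison, with Benjamini-Hochberg adjustment over all genes. On simulated data for x-rays against controls, 62.5% of 200 genes changed by 1.5 log2 units among 15085 were found, with 3 false calls. Lower bounds on a fold are given only where every exposed array was well above background. They use, for each control array, the lowest level among probes well above background, or the measured level where higher. No depth applies to arrays, so precision is limited by their number.

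The genes and lists were chosen with earlier results of these data known. The rule for named genes took every Apol gene, the 8 genes most like Apol10a over the arrays and the 5 most like it within groups, the interferon genes with the 3 largest rises and falls after x-rays or called in all exposures, and neighbours and apolipoproteins called in 3 or more. Apod, Apoa1 and the liver genes were chosen after their values were seen. Alternatives covered scaling, background correction, filters, the probe rule, 1 model over all groups, slide, session and replicate number as blocks, and leaving out each array. Replicate numbers did not pair the mice: the deviations of same-numbered arrays correlated with a mean r of 0.037. RefSeq sequences were read on GRCm38.p6, and mm9 positions come from the array files. Figures were drawn with matplotlib 3.10.9.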

Additional observations from a re-analysis of the deposited data

Results flagged for a closer look

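Of 36 sets of 6 arrays (a gene in a group, 1 of them with 5 usable arrays), 5 held an array farther from the others than Dixon's 95% limit, and chance gives about 1 in 20 sets. Neutron replicate 2 was high in 3 of them, with an Apol10a level of 7.05 beside 5.78 in the next array, an Apol10b level of 8.43 beside 7.38 and an Apol11b level of 11.30 beside 10.13. Without it, the log2 difference of Apol10a was 1.89 from controls, -3.05 from x-rays and -2.99 from the 25% mixed field. X-ray replicate 1 was low for Apol10b, at 8.14 beside 8.58. Neutron replicate 6 was high for Apol9a, at 3.47 beside 2.77.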

How the results depend on the processing

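The Apol10a differences from controls and of neutrons from x-rays and from the 25% mixed field kept their direction under every alternative run, and leaving out 1 array at a time moved none by more than its SD. The median over all genes moved by over 0.1 under some scalings, so differences are relative to it. Against controls, in the order x-rays, 5%, 15% and 25% mixed fields and neutrons, that median was -0.26, -0.53, -0.046, -0.21 and -0.53 under normexp, 0.23, 0.079, 0.18, 0.017 and 0.15 with 75th percentile centring, and -0.18, -0.28, -0.32, -0.22 and -0.45 in the deposited table.

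Normexp changed most. It was run with an offset of 50, whereas the median intensity of the arrays in the main processing ran from 7.25 to 43.8. The part of the offset in these changes was not tested. Under normexp Apol10a stood 3.66, 2.46, 4.69, 3.83 and 0.469 above controls, -1.21 and 1.03 from x-rays in the 5% and 15% mixed fields, and -3.36 from the 25% mixed field after neutrons. The other Apol genes called against controls then numbered 0 for x-rays, the 5% and 25% mixed fields and neutrons, 0 for neutrons against x-rays and 0 against the 25% mixed field. Interferon genes called numbered 0, 2, 1, 0 and 1, neighbours 3, 2 and 3 for the first 3 exposures and 4 for neutrons, apolipoproteins 0 apart from the 15% mixed field, and 3 of the 8 genes most like Apol10a remained.

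With the slide or the session as a block, Apol10a was 3.40 and 3.97 above controls in the 5% and 15% mixed fields. Other Apol genes called there numbered 0 in the 5% mixed field under either, and in the 15% mixed field 0 by slide and 1 by session. Neutrons against the 25% mixed field gave 0 by slide, 3 with the adjusted p alone, 2 by quantile normalization, 3 in the deposited table and 1 to 2 without 1 array (2 without replicate 2, 4 or 5 of the 25% mixed field or neutron replicate 2). Neutrons against x-rays gave 1 to 2 without 1 array. The liver covariate gave 0 and 1 in these contrasts, and -3.57 for Apol10a against the 25% mixed field. It reversed Apol9a to -0.143, -0.101 and 0.795 and Apol9b to -0.486, -0.148 and 0.15 (15% and 25% mixed fields against controls, neutrons against the 25% mixed field).

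With the replicate block, although the numbers did not pair the mice, interferon genes called numbered 5 for x-rays and 4 for the 5% mixed field, neighbours 4 and 4 for the 5% and 15% mixed fields, and apolipoproteins 0, 12 and 1 for the 5% and 25% mixed fields and neutrons. Apol9a (1.87) and Apol9b (2.47) became called in the 25% mixed field. Apol7b lost its call after x-rays and in all mixed fields, and Apol9b after x-rays turned to 0.203.

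Apolipoproteins called numbered 2 for x-rays and 2 for the 25% mixed field with 75th percentile centring, and 0, 0, 0, 0 and 1 in the deposited table. The uncalled x-ray difference of Apol9a, near 0, turned to 0.230, 0.179, 0.162, 0.0509 and 0.467 under 75th percentile centring, centring on well-measured probes, quantile normalization, the deposited table and the slide block, and ranged from -0.594 to 0.312 without 1 array. That of Apol9b turned to 0.286, 0.238, 0.152, 0.0651 and 1.92 under the same settings and to 0.245 by session, and ranged from -0.681 to 0.595. The cause of these shifts was not tested. Signal over background limits Apol6, Apol7a, Apol7c and Apol7d, which could not be tested.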
